A study of Mus musculus with 27 samples.

Results

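Liver RNA from mice given 3 µg/kg of 2,3,7,8-tetrachlorodibenzo-p-dioxin (TCDD) was compared with liver RNA from mice given 0.3 µg/kg, a 10-fold lower dose. The libraries were chosen by their dose labels alone, which gave 3 libraries at each dose and 6 of the 27 libraries of the series. All mice were ovariectomized females of the C57BL/6 strain with a labelled age of 120 days. They received the dose in sesame oil by gavage every 4 days for 92 days, and 1 label also calls the dosing daily. The series holds 9 groups of 3 biological replicates, namely the sesame oil vehicle and 8 doses of TCDD. All 27 libraries enter the fit that gives the spread, and the contrast is between the 2 doses only. The labels name no transgene or other treatment.

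TCDD is a long-lived pollutant that binds the aryl hydrocarbon receptor (AhR), a transcription factor that waits in the cytoplasm in a complex with heat shock protein 90 and moves to the nucleus when a ligand binds. There it pairs with ARNT and binds DNA at dioxin response elements, whose core is the pentamer GCGTG, near genes such as those of the Cyp1 family of cytochrome P450 enzymes. In rodent liver, lasting activation of the receptor is known for fat accumulation, inflammation and fibrosis. The series title names the dose dependence of metabolic change and liver fibrosis, and the comparison describes what differs across one 10-fold step of dose.

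The second 0.3 µg/kg library stood apart by depth, with 434011 counts on genes against 11050391 to 25095297 in the other 5. A single count in it equals 2.87 CPM (counts scaled to a common library size), against 0.0385 to 0.0882 in the other 5, and 4188 of the 15121 genes tested had no count there. It was kept, and results that rest on it are given with and without it. Levels below are CPM after TMM scaling and are listed in the order of the replicate numbers, the shallow library always second at 0.3 µg/kg. The 0.3, 1, 3 and 10 µg/kg libraries share no index sequence (the tag that marks a library) with the other groups, vehicle included. Where vehicle levels are given beside these groups, dose and index set cannot be told apart. Fold changes, their standard errors (SE) and adjusted p-values come from edgeR's quasi-likelihood test with Benjamini-Hochberg adjustment over all genes tested. The fit gives less weight to a shallow library, while group means of CPM weigh the 3 libraries alike. Fitted folds therefore need not equal ratios of the means. Genes with an adjusted p below 0.05 are those called. These are whole livers, in which fewer cells of a type and less RNA per cell cannot be told apart. As a check of the tissue, the summed level of 10 hepatocyte markers was 122600 to 232100 CPM at 0.3 µg/kg and 116300 to 149400 CPM at 3 µg/kg, and none of the 10 was at 0 in any library. Of the 10, 9 had fold changes below 0, with a median log2 of −0.48. At an unadjusted edgeR p below 0.05, 5 were lower and 0 higher, and 1 was called, Apoa1, lower.

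Of 15121 genes tested, 293 were called between the doses (1.94%), of which 183 were higher (1.21% of genes tested) and 110 lower (0.727%) at 3 µg/kg. At least 4-fold changes were seen for 76 of the higher and 25 of the lower genes. The libraries of the 2 doses did not overlap for 2997 genes tested (19.8%) and for 275 of the 293 called genes. Across all genes tested the median log2 fold change was −0.02, and 47.8% had fold changes above 0. The shares of 1.21% called higher, 0.727% called lower and 47.8% above 0 are those to set beside the lists below. Before adjustment, 2182 of the 15121 had an edgeR p below 0.05, the count to set beside the unadjusted counts of lists below. At the intermediate dose of 1 µg/kg the mean level lay between those at 0.3 and 3 µg/kg for 160 of the 183 higher and 86 of the 110 lower genes, lay beyond the 3 µg/kg mean for 19 and 22, and fell short of the 0.3 µg/kg mean for 4 and 2. These genes were chosen by the gap between 0.3 and 3 µg/kg, and that choice favours a 1 µg/kg mean inside the gap. The counts therefore cannot show a graded response, and the share among all genes tested was not computed. The 3 livers at 1 µg/kg were unlike each other, with summed neutrophil markers of 1156, 8.83 and 201 CPM and summed Kupffer cell markers of 1834, 628 and 1115 CPM. Without the shallow library the test called 161 genes higher and 67 lower. Leaving out the first 0.3 µg/kg library gave 63 and 37, the second 3 µg/kg library 116 and 36, and the third 3 µg/kg library 107 and 33. Of the 293 calls, 68 were kept whichever of the 6 libraries was left out, 53 of them higher and 15 lower.

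**Figure D1:**
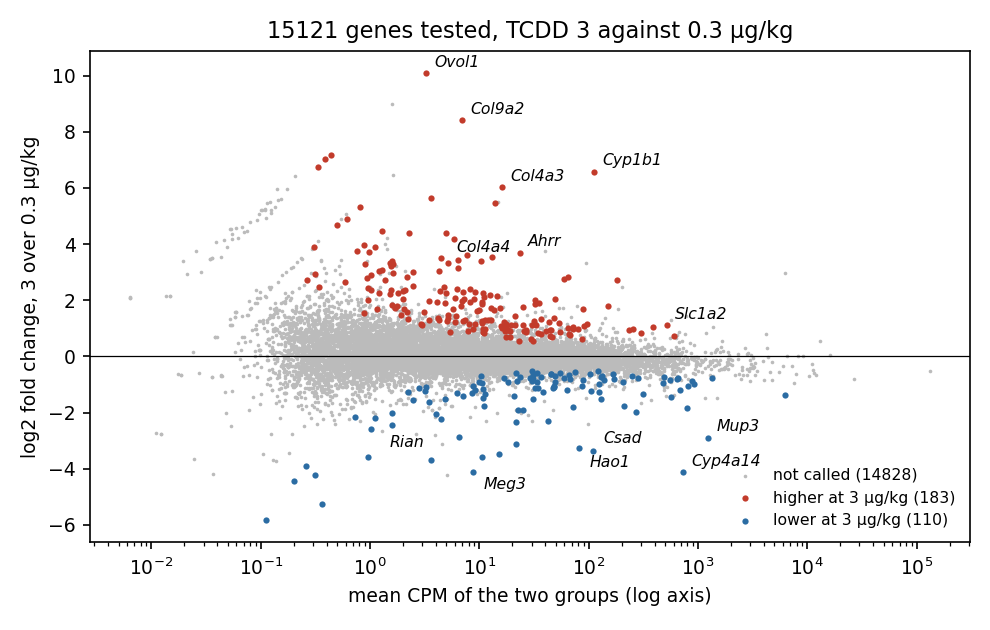
Fitted log2 fold change (3 over 0.3 µg/kg, vertical axis) of each of 15121 genes tested against the mean CPM of both groups (log axis). Grey points are uncalled genes, red points the 183 called higher and blue points the 110 called lower, and most of the labelled rises lie at low mean CPM while Csad, Hao1, Mup3 and Cyp4a14 fell from higher levels.

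The AhR target genes with the clearest difference were Cyp1b1, Ahrr and Tiparp, whose promoters are shown because the receptor is known to act through DNA sites near its targets, next to that of Cyp1a1, which was not called. Each line gives the 250 bases before the annotated transcription start, 5′ to 3′ on the gene's own strand, from RefSeq on GRCm38.p6, with every copy of the core GCGTG, or CACGC as it reads on the other strand, in capitals.
Cyp1b1 (chr17:79715062-79715311, minus strand): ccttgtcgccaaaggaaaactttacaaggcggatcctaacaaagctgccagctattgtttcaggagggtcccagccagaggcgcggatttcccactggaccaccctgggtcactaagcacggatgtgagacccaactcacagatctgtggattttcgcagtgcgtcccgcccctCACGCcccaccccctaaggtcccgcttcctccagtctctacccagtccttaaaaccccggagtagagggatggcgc
Ahrr (chr13:74292332-74292581, minus strand): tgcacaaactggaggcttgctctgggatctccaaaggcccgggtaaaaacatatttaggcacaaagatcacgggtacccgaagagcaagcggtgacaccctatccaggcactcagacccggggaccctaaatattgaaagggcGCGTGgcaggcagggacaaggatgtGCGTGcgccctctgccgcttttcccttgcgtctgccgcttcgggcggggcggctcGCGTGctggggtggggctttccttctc
Tiparp (chr3:65528197-65528446, plus strand): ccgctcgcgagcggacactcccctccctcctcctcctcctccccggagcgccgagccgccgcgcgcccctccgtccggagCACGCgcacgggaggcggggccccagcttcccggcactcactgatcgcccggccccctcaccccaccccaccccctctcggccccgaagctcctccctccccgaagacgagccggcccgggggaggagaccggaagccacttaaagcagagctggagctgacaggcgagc
Cyp1a1 (chr9:57697363-57697612, plus strand): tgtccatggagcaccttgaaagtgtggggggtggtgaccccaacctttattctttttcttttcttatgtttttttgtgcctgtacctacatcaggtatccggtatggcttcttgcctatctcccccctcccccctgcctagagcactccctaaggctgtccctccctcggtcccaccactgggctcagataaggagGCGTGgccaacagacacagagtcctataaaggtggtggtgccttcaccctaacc

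The Ahrr window holds 3 cores, whose first bases lie 107, 82 and 27 bases before the start. The windows of Cyp1b1, Tiparp and Cyp1a1 hold 1 each, at 76, 170 and 54 bases, and those of Nqo1 and Cyp1a2 hold none of these letters. The core is common: 28.2% of all 32851 promoter windows in the table and 42.2% of those of genes tested hold it on either strand. Among the called genes it was in 61 of 174 windows (35.1%) of 134 matched higher genes and in 37 of 104 (35.6%) of 81 matched lower genes. A match is a description of the letters and says nothing about binding.

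Of the 11 members of the AhR target list, 4 were called higher and none lower, all 11 had fold changes above 0, and the list's median log2 fold change was 0.78. Of all genes tested 1.21% were called higher, and 47.8% lay above 0. Cyp1b1 encodes a P450 that oxidizes steroids and polycyclic hydrocarbons, and its level was 1.70, 5.75 and 2.70 CPM at 0.3 µg/kg and 192, 240 and 233 CPM at 3 µg/kg. The groups are far apart in every library. Cyp1b1 rose 95.8-fold (log2 6.58, SE 0.36, adjusted p = 7.03e-12), with means of 0.763 CPM in vehicle, 140 at 1 µg/kg and 720 at 10 µg/kg. Ahrr encodes the AhR repressor, which competes with the receptor for ARNT, and it went from 2.22, 8.62 and 3.89 CPM to 35.6, 44.1 and 45.4 CPM. Ahrr also shows no overlap, and it rose 12.9-fold (log2 3.69, SE 0.27, adjusted p = 1.72e-09).

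Tiparp encodes a poly(ADP-ribose) polymerase that acts as a negative regulator of the receptor. It was at 7.61, 0 and 5.67 CPM at 0.3 µg/kg, the 0 being the shallow library, and at 21.7, 21.9 and 20.1 CPM at 3 µg/kg. Tiparp rose 3.33-fold (log2 1.74, SE 0.32, adjusted p = 0.00281), and the call held without each library in turn. Nqo1, a quinone reductase controlled by both AhR and NRF2, was at 26.2, 22.99 and 31.97 CPM against 48.4, 53.3 and 58.7 CPM and rose 1.88-fold (log2 0.91, SE 0.20, adjusted p = 0.0128). Its groups do not overlap, but its call was lost without the first 0.3 µg/kg library (adjusted p = 0.141) or the third 3 µg/kg library (adjusted p = 0.0665).

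The main liver targets Cyp1a1 and Cyp1a2, P450 enzymes that oxidize aromatic hydrocarbons and amines, were already high at 0.3 µg/kg and were not called. Cyp1a1 was at 2122, 3543 and 3528 CPM at 0.3 µg/kg and 4803, 5809 and 5170 CPM at 3 µg/kg, against a vehicle mean of 3.12 CPM. These libraries do not overlap, yet the log2 fold change of 0.78 (SE 0.22) had an adjusted p of 0.0624, with 0.00735 in DESeq2 and 0.0429 when the 1 µg/kg group was left out of the edgeR fit. Cyp1a2 was at 7656, 12270 and 12320 CPM against 15370, 16230 and 14980 CPM, a log2 difference of 0.53 (SE 0.22, adjusted p = 0.243) with no overlap. For both genes the first 0.3 µg/kg library was the lowest of the 6.

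Of the other AhR targets, none passed the test. Ugt1a6a and Ugt1a6b, which add glucuronic acid to phenols and share most of their exons with other Ugt1a transcripts, had adjusted p-values of 0.421 and 0.268. Nfe2l2, which encodes NRF2, had means of 94.7 and 117 CPM (adjusted p = 0.478), and Gsta1 means of 0.552 and 1.34 CPM (adjusted p = 0.859). Aldh3a1 had 1 count in the 3 libraries at 0.3 µg/kg and 6 at 3 µg/kg, a ratio of 3.52 with a 95% interval of 0.427 to 162 that covers counting error only.

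**Figure D2:**
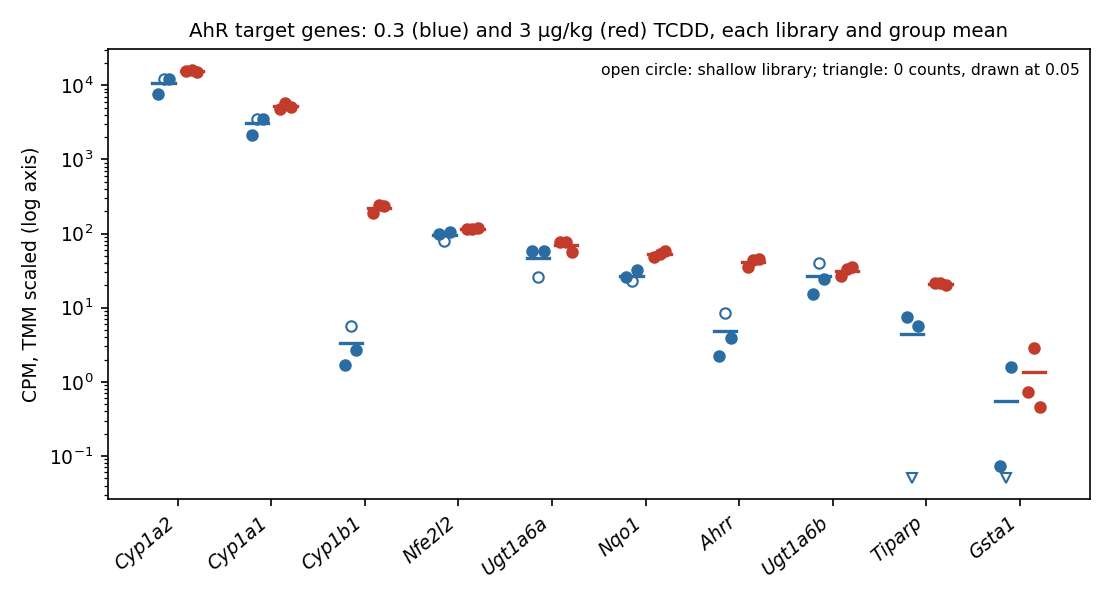
Level of 10 AhR target genes in each library (CPM after TMM scaling, log axis), blue for 0.3 and red for 3 µg/kg, with open symbols for the shallow library, triangles for 0 counts drawn at 0.05, and bars for group means. The gap between the groups of Cyp1b1 is far wider than the spread of either group. For Ahrr the gap is about as wide as the spread at 0.3 µg/kg, and Cyp1a1 and Cyp1a2 differ by less than 2-fold between means.

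The receptor and its partners formed a list of 7, of which 6 were tested and 1 was called. Src encodes a tyrosine kinase that is found in the cytoplasmic AhR complex, and it rose from 2.59, 5.75 and 3.69 CPM to 10.2, 14.1 and 12.8 CPM (log2 1.93, SE 0.28, adjusted p = 9.48e-05). The Src groups do not overlap. Ahr itself was at 54.4, 34.5 and 44.6 CPM against 33.3, 31.7 and 36.7 CPM (adjusted p = 0.283), Arnt had means of 40.2 and 43.2 CPM (adjusted p = 0.939) and Hsp90ab1 1050 and 922 CPM (adjusted p = 0.679). Ahr was added to the genes chosen by rule because it encodes the receptor.

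The largest rises were in genes with little or no RNA in the 0.3 µg/kg livers, and 3 of the 15 encode collagen chains. These 15 and the 15 largest falls were picked among calls without overlap between the groups. Their separation therefore follows from the choice. Ovol1, a zinc finger transcription factor of epithelia, had no count in any 0.3 µg/kg library and 5.95, 6.26 and 7.44 CPM at 3 µg/kg, at least 21.9-fold higher when each 0.3 µg/kg library is set at 3 counts and the group is summed. Gene models of the opposite strand overlap 21.96% of the exonic bases of Ovol1, and the strand setting of the counting is not given in the sources used here. Ovol1 had a mean of 1.68 CPM at 1 µg/kg, 10.2 at 10 µg/kg and 0 in vehicle. Col9a2 encodes a chain of collagen IX, best known from cartilage, and had 1 count in the 3 libraries at 0.3 µg/kg and 687 at 3 µg/kg, where it stood at 13.5, 14.5 and 13.8 CPM. Its ratio of pooled counts was 403 with a 95% interval of 72.04 to 15930 for counting error alone, and edgeR gave an adjusted p of 9.30e-09.

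Col4a3 and Col4a4 encode chains of collagen IV, the network collagen of basement membranes. Col4a3 was at 0.443, 0 and 0.527 CPM at 0.3 µg/kg and 37.7, 23.5 and 33.9 CPM at 3 µg/kg and rose 65.4-fold (log2 6.03, SE 0.49, adjusted p = 1.50e-08). Col4a4 was at 0.369, 0 and 0.527 CPM against 10.4, 8.99 and 9.17 CPM and rose 21.1-fold (log2 4.40, SE 0.46, adjusted p = 6.45e-07). Both show no overlap, and both had means at 10 µg/kg, 25.3 and 7.07 CPM, that were no higher than at 3 µg/kg.

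Pls1, an actin bundler of microvilli, rose from 0.443, 0 and 0.791 CPM to 24.1, 29.8 and 28.4 CPM (log2 5.47, SE 0.50, adjusted p = 1.07e-07). Fabp12, of the fatty acid binding proteins, rose from 0.443, 0 and 0.791 CPM to 14.6, 10.4 and 8.63 CPM (log2 4.17, SE 0.56, adjusted p = 6.33e-05). In both genes the lowest 3 µg/kg library lies above every 0.3 µg/kg library by a wide gap. Cnksr1, a scaffold of Ras signalling (log2 4.40, SE 0.58), Ap1m2, an adaptor subunit of epithelial sorting (log2 3.89, SE 0.62), and Zmynd10, needed to assemble ciliary dynein (log2 3.73, SE 0.60), also rose, with adjusted p-values of 2.96e-05, 4.91e-04 and 4.86e-04. All 5 calls of this paragraph held without each library in turn, although the log2 fold change of Ap1m2 was 4.79 without the third 0.3 µg/kg library.

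The remaining large rises rest on fewer counts or on single libraries. Pnliprp1, a relative of pancreatic lipase, was at 0.222, 0 and 0.0659 CPM against 5.46, 8.20 and 7.82 CPM (log2 5.64, SE 1.01, adjusted p = 0.00416), but its call was lost without the first or the third 0.3 µg/kg library (log2 6.69 and 5.05, adjusted p = 0.0593 and 0.05001). Gpx2, the epithelial glutathione peroxidase, had 1 count against 80 (ratio 46.9, 95% interval 8.18 to 1875, adjusted p = 0.0440), and leaving out any library but the first at 3 µg/kg ended its call, with adjusted p-values of 0.0664 to 0.245. Gipc2, a PDZ domain adaptor, had 3 counts against 112 (ratio 21.9, interval 7.30 to 108, adjusted p = 0.0221) and lost its call without the first (adjusted p = 0.163) or the third 0.3 µg/kg library (0.128) or the second 3 µg/kg library (0.0684). Usp43, a deubiquitinase, had 3 against 72 (ratio 14.1, interval 4.63 to 69.8, adjusted p = 0.00881) and lost its call without the first (0.139) or the third 0.3 µg/kg library (0.0502). In all 4 genes the 3 µg/kg libraries lie above every 0.3 µg/kg library. Opposite-strand gene models overlap 20.9% of the exonic bases of Gipc2 and 12.8% of those of Usp43.

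**Figure D3:**
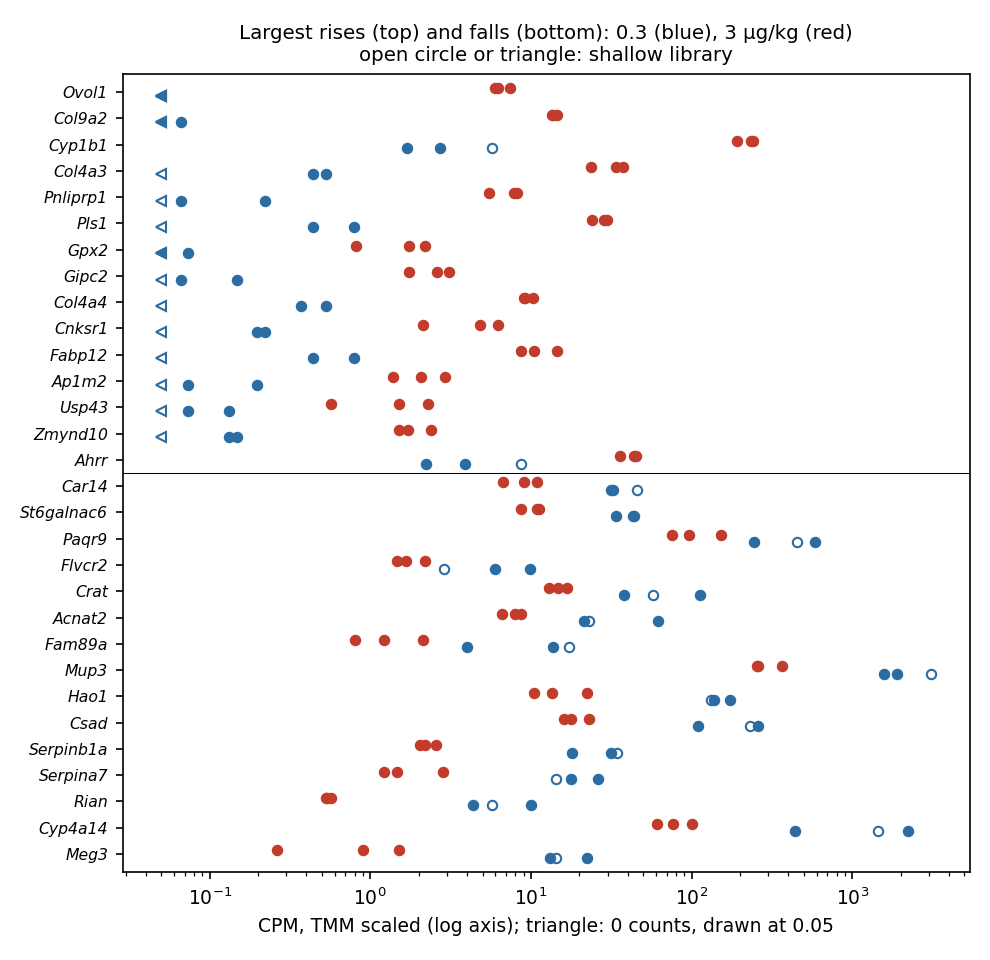
Level in each library (CPM after TMM scaling, log axis) of the 15 largest rises (top) and 15 largest falls (bottom) chosen by rule, blue for 0.3 and red for 3 µg/kg, with open symbols for the shallow library and triangles for 0 counts drawn at 0.05. Separate groups were a condition of the choice. The rises came mostly from under 1 CPM and the falls often from well above 10 CPM.

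Among the largest falls were 2 long noncoding RNAs of one imprinted cluster and several enzymes of hepatocyte metabolism. Meg3, a maternally expressed noncoding RNA, was at 13.2, 14.4 and 22.4 CPM at 0.3 µg/kg and 0.897, 0.265 and 1.50 CPM at 3 µg/kg, and fell 17.6-fold (log2 −4.14, SE 0.50, adjusted p = 1.83e-05). Rian, from the same cluster, was at 4.36, 5.75 and 10.0 CPM against 0.571, 0.529 and 0.539 CPM and fell 12.9-fold (log2 −3.69, SE 0.53, adjusted p = 9.48e-05). The groups are separate for both, as the rule of choice required. Both calls held without each library in turn, with log2 fold changes of −4.86 for Meg3 without the third 3 µg/kg library and −3.01 for Rian without the third 0.3 µg/kg library. The vehicle means of 8.59 CPM for Meg3 and 2.31 CPM for Rian lay below the 0.3 µg/kg means of 16.7 and 6.71 CPM.

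Hao1 encodes glycolate oxidase, the peroxisomal enzyme that makes glyoxylate, and was at 137, 132 and 174 CPM against 22.5, 10.5 and 13.4 CPM. It fell 9.69-fold (log2 −3.28, SE 0.29, adjusted p = 6.72e-08) with no overlap, and its mean went from 160 CPM in vehicle through 70.4 at 1 µg/kg to 0.0731 at 10 µg/kg. Csad encodes cysteine sulfinic acid decarboxylase, the enzyme that leads to taurine, and fell from 260, 230 and 110 CPM to 17.9, 16.1 and 23.1 CPM (log2 −3.37, SE 0.39, adjusted p = 1.15e-05). Csad also shows no overlap, and its mean was 49.9 CPM at 10 µg/kg, above that at 3 µg/kg.

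Serpinb1a, an intracellular inhibitor of neutrophil proteases, fell from 31.7, 34.5 and 18.1 CPM to 2.04, 2.20 and 2.58 CPM (log2 −3.49, SE 0.42, adjusted p = 1.83e-05). St6galnac6, a sialyltransferase of gangliosides, fell from 43.7, 43.1 and 33.7 CPM to 11.3, 8.73 and 10.9 CPM (log2 −1.93, SE 0.18, adjusted p = 9.96e-08). Neither gene has a 3 µg/kg library near its 0.3 µg/kg libraries. Car14, a membrane carbonic anhydrase with 17.5% of its exonic bases overlapped on the other strand, fell 3.77-fold (adjusted p = 2.25e-04). Mup3, a major urinary protein of a family with near-identical copies that share reads, fell from 1903, 3106 and 1572 CPM to 368, 259 and 255 CPM (log2 −2.89, SE 0.54, adjusted p = 0.00456). These 4 calls also held without each library in turn.

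Calls of the other large falls depended on single libraries. Cyp4a14, a fatty acid hydroxylase and classic target of PPARα, was at 2241, 1439 and 444 CPM against 76.7, 60.6 and 101 CPM, a separation of groups with a wide spread at 0.3 µg/kg. It fell 17.3-fold (log2 −4.11, SE 0.97, adjusted p = 0.0308), and leaving out any library but the third at 0.3 µg/kg ended the call, with adjusted p-values of 0.0607 to 0.147. Serpina7, the thyroxine-binding globulin, fell from 26.0, 14.4 and 17.8 CPM to 1.22, 2.82 and 1.46 CPM (log2 −3.57, SE 0.72, adjusted p = 0.00987), and lost its call without the first 0.3 (0.0868) or the third 3 µg/kg library (0.0847). Acnat2, which conjugates fatty acids to amino acids, and Crat, the carnitine acetyltransferase, fell 5.01-fold and 4.90-fold (adjusted p = 0.0183 and 0.0127). Without the first 0.3 µg/kg library their adjusted p-values were 0.363 and 0.269, without the second 3 µg/kg library 0.0993 and 0.0657, and without the third 0.0990 and 0.0888, and Acnat2 was also lost without the first (0.0546). Without the first 0.3 µg/kg library the log2 fold changes of Acnat2 and Crat were −1.47 and −1.53, against −2.33 and −2.29 with it. Fam89a, Paqr9, a membrane receptor of the adiponectin receptor family, and Flvcr2, a choline transporter, fell 7.23-fold, 3.94-fold and 4.17-fold. Without the first 0.3 µg/kg library their adjusted p-values were 0.245, 0.0919 and 0.122, without the third 3 µg/kg library 0.0692 for Fam89a and 0.0694 for Paqr9, and without the second 0.0575 for Paqr9. The log2 fold change of Fam89a was −1.99 without the first 0.3 µg/kg library, against −2.86 with it.

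Fatty acid oxidation held the most falls of any pathway list, with 5 of 28 members called lower, none higher, 25 below 0 and a median log2 fold change of −0.67. Of all genes tested 0.727% were called lower, and 47.8% lay above 0. Beside Cyp4a14, they were Acaa1b, a peroxisomal thiolase, Acadl and Acadvl, the long-chain and very-long-chain acyl-CoA dehydrogenases, and Hadha, a subunit of the mitochondrial trifunctional protein, which was named after its values were seen. Acaa1b was at 1244, 1767 and 675 CPM against 361, 392 and 276 CPM and fell 3.56-fold (log2 −1.83, SE 0.37, adjusted p = 0.00638), and its call was lost without the third 3 µg/kg library (0.0620). Acadl fell 1.64-fold, Acadvl 1.76-fold and Hadha 1.66-fold, with adjusted p-values of 0.0423, 0.0429 and 0.0444. Without the shallow library the list kept 1 call, Acaa1b. The log2 fold change of Acadvl was then −0.33, against −0.81 with that library, and that of Acadl −0.52, against −0.71. Vehicle means were 505 CPM for Acadvl, 229 for Acadl and 811 for Acaa1b, below their 0.3 µg/kg means of 821, 314 and 1229 CPM. That of Cyp4a14, 1742 CPM, was above its 0.3 µg/kg mean of 1375 CPM. DESeq2 called 11 of the 28 lower. Leaving out any library but the third at 0.3 µg/kg ended the calls of Acadl (0.0587 to 0.225) and Hadha (0.107 to 0.318), and leaving out the shallow library (0.384) or any 3 µg/kg library (0.0989 to 0.211) ended that of Acadvl. Opposite-strand gene models overlap 42.9% of the exonic bases of Acadvl, and RLE scaling gave 3 calls in the list.

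Other lipid lists held at most 2 calls each, all lower, where 0.727% of all genes tested were called lower. Of 21 genes of fatty acid and triglyceride synthesis, Agpat2, which makes phosphatidic acid, fell from 189, 178 and 132 CPM to 85.5, 88.8 and 75.4 CPM (log2 −0.99, SE 0.19, adjusted p = 0.00416, and 0.0749 without the first 0.3 µg/kg library). Scd1, the stearoyl-CoA desaturase, had means of 9130 ± 5552 and 9141 ± 5035 CPM (SD, n = 3), with a wide spread in both groups. Apoa1, the main protein of high-density lipoprotein, was the only call among 27 genes of cholesterol and lipoproteins. It was at 7818, 8120 and 10760 CPM against 5545, 2546 and 2323 CPM (log2 −1.36, adjusted p = 0.0355), and leaving out any library but the first at 3 µg/kg ended the call, with adjusted p-values of 0.0652 to 0.218. Of 17 genes of bile acid synthesis, Slc27a2 and Hsd17b4, peroxisomal enzymes of side chain shortening, fell (log2 −0.76 and −0.85, adjusted p = 0.0282 and 0.0368). Slc27a2 lost its call without the first 0.3 (0.213), the shallow (0.0866), or the second (0.144) or the third 3 µg/kg library (0.182), and Hsd17b4 without any library but the third at 0.3 µg/kg (0.0723 to 0.296). Without the shallow library the log2 fold changes of Slc27a2 and Hsd17b4 were −0.69 and −0.44. In edgeR none of 16 bile acid and anion transporters and none of 19 genes of lipid uptake and droplets was called (at an unadjusted p below 0.05 there were 4 and 6, DESeq2 called 0 and 1, and edgeR on the 6 libraries alone 0 and 1).

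Drug metabolism outside the AhR list changed in single genes. Sult5a1, a sulfotransferase, rose from 31.9, 46.0 and 62.8 CPM to 293, 287 and 359 CPM (log2 2.73, SE 0.42, adjusted p = 4.83e-04), and was the only edgeR call among 24 conjugation enzymes, where DESeq2 called 2 higher and 2 lower and edgeR on the 6 libraries alone 1 higher and 2 lower. Cyp2d9, a male-biased steroid hydroxylase of a family with close copies, rose from 34.9, 60.3 and 103 CPM to 219, 297 and 187 CPM (log2 1.80, SE 0.35, adjusted p = 0.00526, and 0.0566 without the first 0.3 µg/kg library), with a log2 fold change of 2.51 without the third 0.3 µg/kg library. It was the only call among 30 Cyp2 and Cyp3 genes (edgeR on the 6 libraries alone called 1 higher and 1 lower), whose median log2 fold change was −0.14. Of 20 NRF2 and glutathione genes, Nqo1 and Gstm2, a glutathione transferase, rose, where 1.21% of all genes tested were called higher. Gstm2 was at 23.6, 51.7 and 57.4 CPM against 75.7, 84.4 and 93.3 CPM (log2 1.00, adjusted p = 0.0460), and leaving out any library but the third at 0.3 µg/kg ended its call, with adjusted p-values of 0.0575 to 0.412.

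Genes of hormone-dependent and sex-biased liver expression were called in 2 of 32 members, both lower, Mup3 and Igfbp2. Of all genes tested 0.727% were called lower. Igfbp2, a binding protein of insulin-like growth factors, was at 459, 273 and 244 CPM against 119, 62.3 and 112 CPM (log2 −1.75, adjusted p = 0.0330), and leaving out any library but the third at 0.3 µg/kg ended its call, with adjusted p-values of 0.0582 to 0.257. Of 20 thyroid and retinoid genes, Serpina7 and Aldh1a1, a retinaldehyde dehydrogenase, fell. Aldh1a1 was at 1007, 1365 and 1066 CPM against 595, 716 and 546 CPM (log2 −0.88, adjusted p = 0.0166), and lost its call without the shallow library (0.0985), the first 3 (0.0667) or the third 3 µg/kg library (0.129).

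The 2 lists of matrix and fibrosis genes held 2 calls each, all higher, where 1.21% of all genes tested were called higher. The lists were chosen with earlier results of these data known, so these shares describe the lists only. Col4a3 and Col4a4 were on neither list. Of 28 collagen and matrix genes 2 rose, Col9a2 and Tnc, 22 lay above 0 and the median log2 fold change was 0.26. Tnc, the matrix protein tenascin C, was at 1.70, 0 and 2.04 CPM against 7.09, 9.43 and 9.52 CPM (log2 2.25, SE 0.45, adjusted p = 0.00569, and 0.104 without the first 0.3 µg/kg library). The fibrillar collagen gene Col3a1 had means of 29.2 and 36.8 CPM (adjusted p = 0.877). Of 31 genes of matrix remodelling and transforming growth factor signalling, the ligand Tgfb2 and the receptor Tgfbr2 rose. DESeq2 called 5 of the 31 higher, and edgeR on the 6 libraries alone 1. Tgfb2 was at 0.148, 0 and 0.593 CPM against 1.71, 2.65 and 3.04 CPM (log2 2.73, SE 0.55, adjusted p = 0.00632). Without the first 0.3 µg/kg library its log2 fold change was 2.13 (adjusted p = 0.158) and without the third 4.10. Tgfbr2 rose 1.82-fold (adjusted p = 0.0349) and lost its call without the first 0.3 µg/kg library (0.440), the shallow library (0.0640), or the second (0.124) or the third 3 µg/kg library (0.112), and its log2 fold change was 1.48 without the third 0.3 µg/kg library.

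Inflammation genes lay mostly above 0, and their calls depended on the fit. Of 34 chemokine and cytokine genes 30 had fold changes above 0, with a median log2 of 0.83 against −0.02 for all genes tested. The edgeR fit of 27 libraries called 1, Vcam1, against 1.21% of all genes tested called higher. At an unadjusted p below 0.05 in that fit 13 were higher. DESeq2 called 3 higher, and edgeR on the 6 libraries alone 4. Vcam1, an adhesion molecule for leukocytes, was at 8.72, 0 and 8.44 CPM against 21.9, 21.3 and 16.8 CPM (log2 1.29, SE 0.27, adjusted p = 0.00866, and 0.0673 without the first 0.3 µg/kg library). In the lists of complement and coagulation (36 genes tested), cell cycle (26), growth signalling through the EGF family (18), glycolysis (25), gluconeogenesis (14), one-carbon metabolism (21), heme and iron (21) and nuclear receptors (21), edgeR called no gene. At an unadjusted p below 0.05 those lists held 12, 4, 2, 4, 1, 2, 4 and 2 genes, against 2182 of all 15121 genes tested. DESeq2 called 3 in complement and coagulation, 1 in heme and iron and 0 in the other 6. Fitted to the 6 libraries alone, edgeR called 3 genes of complement and coagulation higher and 1 gene each of glycolysis and of heme and iron lower. Hp, the hemoglobin-binding acute phase protein haptoglobin, was at 2274, 2537 and 1799 CPM against 933, 756 and 696 CPM, without overlap (log2 −1.47, adjusted p = 0.277, against 0.00406 in the 6 libraries alone, 0.00829 in the 5 deep libraries and 0.0221 without the 1 µg/kg group).

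In the junction list of 19, Cdh1, the epithelial cadherin, rose from 18.8, 8.62 and 23.4 CPM to 39.1, 41.6 and 48.6 CPM (log2 1.11, adjusted p = 0.0176), and lost its call without the first 0.3 (0.166) or the third 3 µg/kg library (0.0965). Cldn1 and Tjp3, of tight junctions, fell 2.19-fold and 1.89-fold (adjusted p = 0.0249 and 0.0308). For this list and those below, 1.21% of all genes tested were called higher and 0.727% lower. Cldn1 lost its call without the first 0.3 (0.194), the shallow (0.0568), or the second (0.0985) or the third 3 µg/kg library (0.162), and Tjp3 without any library but the third at 0.3 µg/kg (0.0550 to 0.758), with a log2 fold change of −0.31 without the first 0.3 µg/kg library. Of 20 stress genes Atf5, a transcription factor, and Pdia4, a disulfide isomerase of the endoplasmic reticulum, fell 2.55-fold and 1.54-fold (adjusted p = 0.0166 and 0.0309). Atf5 lost its call without the first 0.3 (0.0939), the shallow (0.118), or the second (0.0701) or the third 3 µg/kg library (0.142), and Pdia4 without any library but the first at 3 µg/kg (0.0639 to 0.181). Slc1a2, the glutamate transporter of pericentral hepatocytes, was the only call among 21 zonation genes and rose from 377, 253 and 350 CPM to 702, 690 and 753 CPM (log2 1.11, SE 0.19, adjusted p = 9.76e-04). Its groups do not overlap and its call held without each library in turn. None of the 6 clock activators was called by edgeR (4 were below 0.05 before adjustment, and DESeq2 called 2 lower), and among 13 clock repressors and outputs Bhlhe41 rose (log2 1.29, adjusted p = 0.0352). That call was lost without any library but the third at 0.3 µg/kg (0.0514 to 0.385), whose absence gave a log2 fold change of 2.37. Opposite-strand gene models overlap 19.05% of the exonic bases of Bhlhe41.

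**Figure D4:**
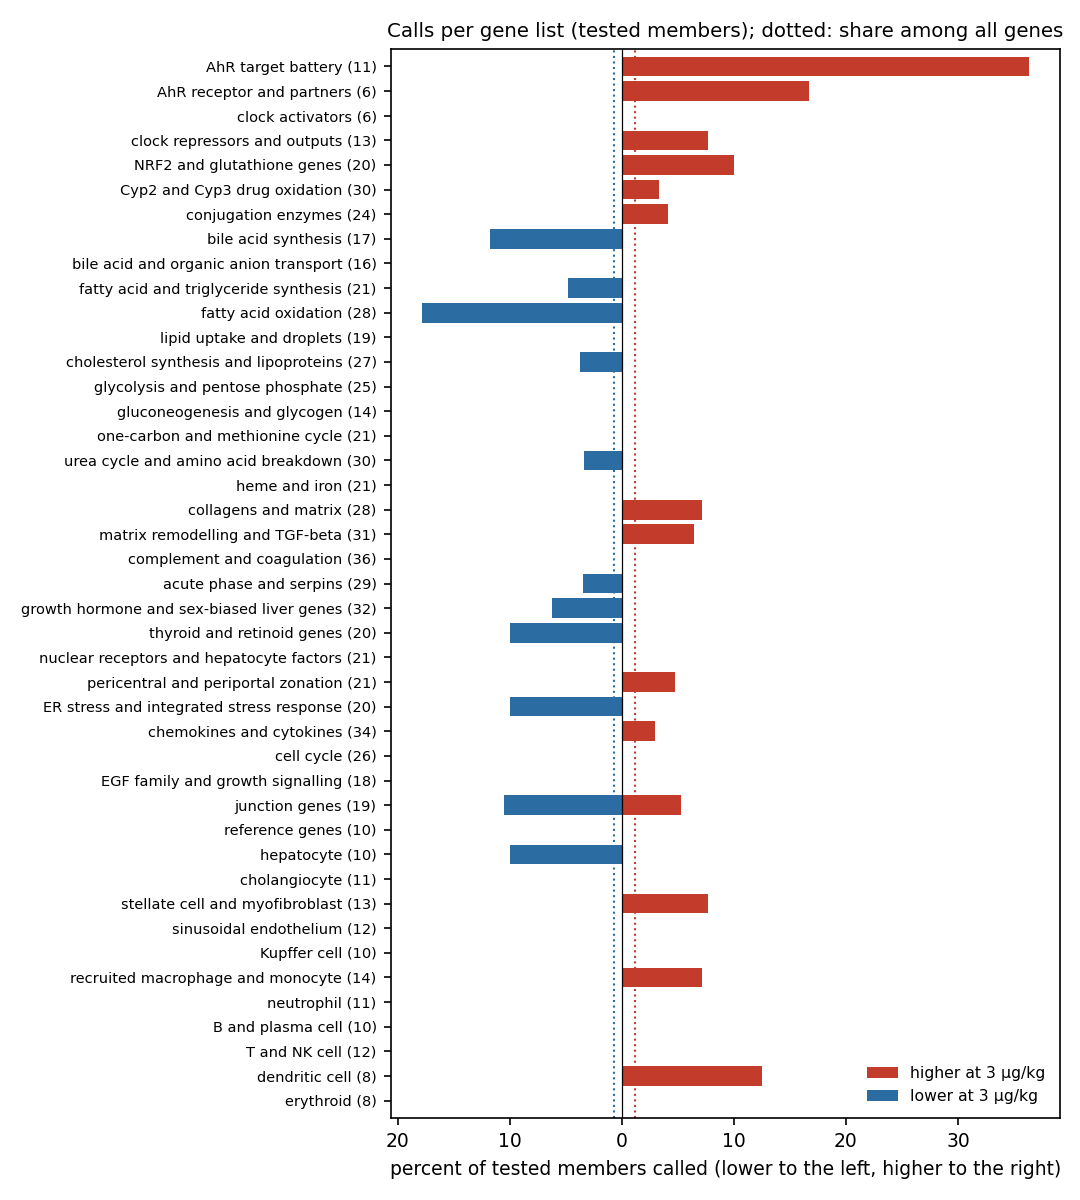
Share of the tested members of each gene list (number tested in brackets) that were called higher (red, to the right) or lower (blue, to the left) at 3 µg/kg, with dotted lines at the shares among all genes tested, 1.21% and 0.727%. The AhR target list has the highest share higher (4 of 11) and fatty acid oxidation the highest share lower (5 of 28), and short lists reach high shares with a single call.

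Summed levels of several marker sets of other cell types were higher at 3 than at 0.3 µg/kg, and their part in the changes above was not tested. The B and plasma cell sums lay lower at 3 µg/kg with overlap, at 198 to 225 against 162 to 205 CPM, though 9 of 10 markers had fold changes above 0. T and NK cell markers summed to 0 to 6.86 against 9.55 to 16.7 CPM, with 5.94 to 10.4 CPM in vehicle, and none was called by edgeR. The vehicle ranges overlapped those at 3 µg/kg for the endothelial, stellate, recruited macrophage, and T and NK cell sets. The summed level of 9 dendritic cell markers, of which the most abundant encode MHC class II chains and are shared with other antigen-presenting cells, was 110, 279 and 184 CPM at 0.3 µg/kg and 458, 632 and 520 CPM at 3 µg/kg, without overlap, with 377, 123 and 128 CPM in vehicle. Of 8 tested, H2-Aa rose (log2 1.68, SE 0.39, adjusted p = 0.0218), a call lost without the first 0.3 (0.230) or the second 3 µg/kg library (0.111), and 7 lay above 0. The sums of 10 Kupffer cell markers were 378 to 561 against 628 to 692 CPM, and those of 12 endothelial markers 259 to 441 against 479 to 520 CPM, again without overlap. In vehicle they were 427 to 537 and 378 to 491 CPM. None of these markers was called by edgeR (at an unadjusted p below 0.05 there were 3 and 6, DESeq2 called 1 and 2, and edgeR on the 6 libraries alone 3 and 1).

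Stellate cell markers summed to 286 to 387 CPM at 0.3 µg/kg and 391 to 480 CPM at 3 µg/kg, with 342 to 423 CPM in vehicle. All 13 lay above 0 and 1 was called, Reln, a secreted glycoprotein of quiescent stellate cells (log2 0.96, adjusted p = 0.0352), which lost its call without the first 0.3 (0.245), the shallow (0.0860), or the second (0.135) or the third 3 µg/kg library (0.112). Markers of recruited macrophages summed to 54.6 to 122 CPM against 133 to 151 CPM, with 108 to 136 CPM in vehicle. Of these 14 markers 13 lay above 0 and Lgals3 was called (log2 1.98, adjusted p = 0.0344), a call lost whichever of the 6 libraries was left out (0.0546 to 0.232). Neutrophil markers summed to 5.02, 0 and 3.49 CPM against 16.1, 17.1 and 9.05 CPM, with 12 of 12 at 0 in the shallow library. None was called by edgeR (none at an unadjusted p below 0.05, 1 called by DESeq2, and 1 by edgeR on the 6 libraries alone). The marker S100a9 had an edgeR adjusted p of 0.432, and of 0.00169 in the 6 libraries alone. Cholangiocyte markers overlapped, at 180 to 256 against 218 to 244 CPM, and none of 11 was called by edgeR (none at an unadjusted p below 0.05, 0 by DESeq2, and 1 by edgeR on the 6 libraries alone). Muscle markers reached 32.2 CPM in the third 3 µg/kg library against at most 1.50 CPM in the other 5, and none was called.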

How the data were processed

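The authors deposited raw read counts for each gene, 1 table for each of 27 libraries. Per the submitters' processing notes, the authors used FastQC 0.11.2, cutadapt 1.4.1, TopHat 1.4.1, SAMtools 0.1.19 and HTSeq 0.6.1 with GRCm38, and name DESeq. Neither the strand setting nor the annotation release of the counting is stated in the labels. Reads of close gene copies can be lost or split by such counting. RNA was extracted with TRIzol and prepared with an Illumina TruSeq kit, per the labels' protocols. Each table lists 41388 gene identifiers and 5 summary lines, and the latter were set aside (reads on no gene came to 5.62% to 10.2% of reads in the 6 libraries). GENCODE M21 on GRCm38 gave symbols to 40254 identifiers and the overlap of exons between genes.

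In R 4.3.3 with edgeR 4.0.16, filterByExpr (minimum of 10 counts) left 15121 genes, TMM scaled the libraries, and a quasi-likelihood model with 1 term per group and robust dispersion was fitted to the 27 libraries in 9 groups, from which the 3 minus 0.3 µg/kg contrast was taken. The SE is the size of the log2 fold change over the root of its F statistic. The depth of the 6 libraries ran from 434011 to 25095297 counts. Intervals of count ratios are exact, at 95%, and cover counting error only. Alternatives were DESeq2 1.42.0, other scaling, filters, thresholds, sample sets, a replicate block, and leaving out each library. The fit alone on the 5 deep libraries was chosen after seeing the data.

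The members and lists were chosen with earlier results of these data known. The named genes were the 15 largest rises and 15 largest falls among calls that reached a mean of 1 CPM in the higher group, did not overlap between groups and were no predicted gene model, every AhR target, and at most 4 called (by p) and 2 uncalled genes (by level) of each list. A few genes that this rule gives are not reported here.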

Additional observations from a re-analysis of the deposited data

How the results depend on the processing

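No gene named here reversed its direction with a call under any alternative run. The count of 293 calls (183 higher, 110 lower, 62.5% higher) moved to 466 with DESeq2 (290 and 176), to 182 in a fit of the 12 libraries of 0.3 to 10 µg/kg (42 lower, 76.9% higher), to 125 at an adjusted p below 0.01 (91 and 34, 72.8% higher), and to 286 higher without the 1 µg/kg group. A fold of at least 2 left 65 lower genes, and the 5 deep libraries alone gave 61 lower (77.6% higher). The 6 libraries alone gave 338 calls, 75.2% of them higher. Leaving out 1 library gave 100 to 354 calls, 63 to 192 higher and 33 to 162 lower, and the cause was not tested. RLE and upper-quartile scaling, non-robust dispersion and no low-count filter gave 247 to 300 calls.

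Of the 59 calls that the naming rule gave, 23 were kept in every fit that tested them. Without the first 0.3 µg/kg library 33 lost their call, without the shallow library 18, and with DESeq2 none. With a replicate block edgeR called 282 genes, 265 of them among the 293. The replicate numbers were not taken as pairs: deviations of same-numbered libraries correlated at 0.040, 0.021 and 0.055, although each library correlated best with its own number. The block ended the calls of Acadl, Hadha and Irf8 among the genes named. Depth limits the 0.3 µg/kg group. The shallow library had no count for 92 of the 293 called genes and for 4188 of the 15121 genes tested.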

Other observations

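The genes below were chosen after their values were seen. Of the 293 calls, 66 (52 higher, 14 lower) were kept in each of the 17 alternative fits that tested them, and many of these are on none of the lists. Arhgap10 was at 1.404, 0 and 1.055 CPM at 0.3 µg/kg and 14.4, 15.3 and 14.4 CPM at 3 µg/kg (12.2-fold higher, adjusted p = 1.81e-10 by edgeR), with a vehicle mean of 1.65 CPM. Serpinb6a, an intracellular protease inhibitor, was at 12.3, 28.7 and 16.9 CPM against 110, 120 and 104 CPM (7.09-fold higher, adjusted p = 9.30e-09), and opposite-strand gene models overlap 29.3% of its exonic bases. The groups of both genes are separate. Nptx1, a secreted pentraxin best known from neurons, had means of 0.420 CPM in vehicle, 16.6 at 0.3 µg/kg, 103 at 3 µg/kg and 201 at 10 µg/kg (adjusted p = 5.16e-06 between 0.3 and 3 µg/kg). Cyfip2, of the actin-regulating WAVE complex, had means of 2.86, 20.1, 78.1 and 121 CPM at the same doses (adjusted p = 1.90e-05).

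Folds in this paragraph are those of the fit and are not the ratios of the group means printed beside them. Marveld3, a tight junction protein, rose 11.5-fold (means 0.493 and 8.33 CPM), and Pkp1, a desmosome plaque protein, rose 5.23-fold (2.27 and 10.3 CPM). Entpd2, an enzyme that breaks down extracellular ATP, rose 4.86-fold (3.06 and 15.3 CPM), and gene models of its own strand overlap 28.8% of its exonic bases. Trpv4, a calcium channel, rose 7.06-fold (0.367 and 3.95 CPM) and had a mean of 31.1 CPM at 10 µg/kg. Among the falls, Ebpl, a relative of the emopamil-binding sterol isomerase, fell 3.51-fold (112 to 30.3 CPM), Tmem98, a membrane protein, 3.37-fold (17.5 to 4.75 CPM), Adh4, an alcohol dehydrogenase that also oxidizes retinol, 2.07-fold (118 to 55.1 CPM), and Amt, of the glycine cleavage system, 1.87-fold (65.9 to 33.04 CPM).

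Meg3 and Rian lie in the imprinted cluster of chromosome 12, Meg3 at positions 109541001 to 109571726 of GRCm38. A further noncoding RNA of that cluster, Mirg, had 26 counts in the 3 libraries at 0.3 µg/kg and 2 at 3 µg/kg (log2 −4.24, SE 0.82, adjusted p = 0.0043 by edgeR), and its call was lost without the third library at either dose (log2 −3.59 and adjusted p = 0.0610 at 0.3 µg/kg, adjusted p = 0.0562 at 3 µg/kg). The protein-coding gene Dlk1 of the cluster had 2 and 7 counts and was not called (adjusted p = 0.793), and Dio3 and Rtl1 had at most 2 counts in either group and were not tested.

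Beside H2-Aa, H2-DMb1, which helps load peptides on MHC class II, rose 3.71-fold (adjusted p = 0.0164). H2-Ab1, Cd74, H2-Eb1, H2-DMa and Ciita, the other class II genes looked at, had log2 differences of 1.80, 1.67, 1.74, 1.53 and 1.54 with adjusted p-values of 0.0710, 0.0687, 0.0615, 0.0561 and 0.0921. Without the shallow library Cd74 and H2-Eb1 were called (adjusted p = 0.0338 and 0.0452) and the other 3 were not (0.0900 for H2-Ab1, 0.0798 for H2-DMa and 0.112 for Ciita). DESeq2 gave adjusted p-values of 0.0347, 0.0510, 0.00897, 0.0108 and 0.0495 in the order of the genes above, and edgeR on the 6 libraries alone 0.00236, 0.0609, 0.0299, 0.00510 and 0.0253. The interferon-inducible GTPase genes Gbp4, Igtp and Tgtp2 and the transcription factor gene Irf8 rose 3.13-fold, 2.20-fold, 4.61-fold and 2.30-fold (adjusted p = 0.00416, 0.0271, 0.0450 and 0.0393), and their part in the marker sums was not tested. The call of H2-DMb1 was lost without the first or the third 0.3 µg/kg library or the second or the third 3 µg/kg library (adjusted p = 0.0625 to 0.172), and that of Gbp4 without the first 0.3 µg/kg library (0.121). The call of Igtp was lost without any library but the first at 3 µg/kg (0.0629 to 0.163), and those of Tgtp2 (0.0546 to 0.276) and Irf8 (0.0517 to 0.330) whichever of the 6 libraries was left out.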
